A study of Mus musculus with 36 samples.

Results

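Common dendritic cell progenitors (CDP) were compared with multipotent progenitors (MPP) after 24 h of TGF-β1, as a direct difference of levels in treated cells. The comparison rests on 6 of the 36 arrays of the series, 3 of CDP and 3 of MPP, and every level below is the RMA log2 value of a gene on an Affymetrix Mouse Gene 1.0 ST array. Each of 19938 genes was represented by the probe set with the highest mean over all 36 arrays among those annotated with a single symbol. Both cell types came from mouse bone marrow that was cultured with a cytokine cocktail and then sorted by FACS, and both groups received 10 ng/ml recombinant human TGF-β1 for 24 h. The untreated arrays of each cell type (0 h, 3 and 3) served as the reference before treatment, and those at 2, 4, 8 and 12 h give the course. Strain, age, sex and the sorting gate are not stated in the labels. No cells were cultured for 24 h without TGF-β1, so time in culture and TGF-β1 cannot be told apart as sources of what differed from 0 h. These are bulk arrays, in which fewer cells of a type and less RNA per cell cannot be told apart.

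MPP are uncommitted blood progenitors that still give rise to granulocytes, monocytes, lymphocytes and dendritic cells (DC). CDP lie downstream of them and are restricted to the conventional and plasmacytoid DC lineages, with Flt3 as the receptor through which the lineage is maintained. TGF-β1 signals through a pair of serine/threonine kinase receptors that phosphorylate Smad2 and Smad3, and it is known as the cytokine that epidermal Langerhans cells depend on.

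The arrays of a group resembled each other more than those of the other group. Pearson r over all genes was 0.993 to 0.997 among the CDP arrays, 0.997 to 0.998 among the MPP arrays and 0.965 to 0.971 between the groups. The median SD of a gene was 0.0807 in CDP and 0.0637 in MPP. On replicate 1 of both cell types Xist, the RNA of the inactive X chromosome, was low and the Y-linked Eif2s3y was high, and the reverse held on replicates 2 and 3 of both, so this split was balanced between the groups. Replicate 2 of CDP stood apart in inflammatory genes. The value or the lost call without it is given for genes and lists where its omission ended a call or moved a difference well away from 0 by more than 1.5 times.

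The labels were set against marker genes first. Of the 6 measured MPP markers, Cd34, Gata2 and Myb were lower in treated CDP than in treated MPP, with log2 differences of -1.02 ± 0.09, -1.62 ± 0.14 and -2.08 ± 0.10 (limma SE, 3 arrays a group). Cd34 lay at the fold threshold and missed it without replicate 3 of CDP, where the difference was -0.99, and without replicate 1 of MPP. Meis1 at -0.36 ± 0.14, Hlf at -0.70 ± 0.10 and Kit at 0.26 ± 0.23 did not pass the test. Of the 7 CDP markers, Flt3 at 1.60 ± 0.22, Id2 at 1.64 ± 0.10 and Spib at 1.39 ± 0.25 were higher in CDP. The other CDP markers, Csf1r, Irf8, Csf2ra and Cx3cr1, lay between -0.46 and -0.27 and did not pass. Of these 4, Cx3cr1 alone had been called higher in untreated CDP, at 1.40, while Csf1r at 0.15, Irf8 at 0.32 and Csf2ra at -0.28 were not called there either.

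A gene was called where the Benjamini-Hochberg adjusted p of limma over all 19938 genes was under 0.01 and the log2 difference was at least 1 in either direction. By this rule 413 genes were higher in CDP (2.07% of those tested) and 595 were lower (2.98%), together 1008 (5.06%). These shares are the background for the list counts below. Of these, 276 differed by at least 2 log2 units and 94 by at least 3. The median difference over all genes was 0.04. Without replicate 2 of CDP the counts were 448 and 611. Untreated CDP and MPP differed in 561 genes by the same rule (2.81%), 251 higher (1.26%) and 310 lower (1.55%), and the number called was 619 at 2 h (3.1%), 623 at 4 h (3.12%), 667 at 8 h (3.35%) and 743 at 12 h (3.73%). The 417 genes called in the same direction at both ends of the course were 41.4% of those called at 24 h and 74.3% of those called at 0 h. Just inside the fold threshold lay Stab1 at -1.0005 and Spsb1 at 1.0013, and the largest difference left out on its p was that of Il1a, 2.99 with an adjusted p of 0.0181.

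**Figure D1:**
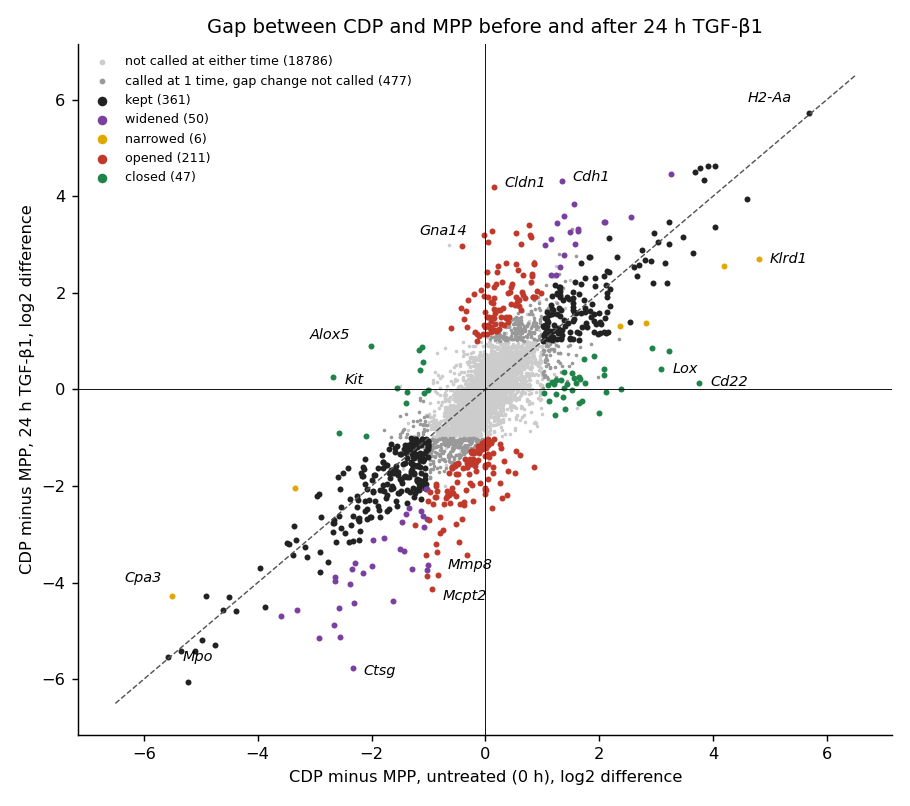
Each point is 1 of 19938 genes; the x axis is the log2 difference of CDP and MPP before treatment and the y axis that after 24 h TGF-β1, with the dashed line marking equal differences. Colours give the classes defined in the text, with their numbers of genes: 361 genes called at both times lie near the line, 211 in red gained a gap and 47 in green, Kit and Cd22 among them, lost it.

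Among the genes with the largest excess in CDP were those of MHC class II, the molecules that present peptides to CD4+ T cells. Of 15 measured members of the presentation list, 9 were higher in CDP and none was lower, with a list median of 1.57 against 0.04 over all genes. The shares of all genes were 2.07% higher and 2.98% lower. On replicates 1, 2 and 3, H2-Aa, the alpha chain of I-A, read 13.71, 13.44 and 13.75 in CDP against 8.37, 7.54 and 7.80 in MPP. The lowest CDP array thus lay far above the highest MPP array, and the difference was 5.73 ± 0.27, or 53.0-fold (adjusted p = 7.70e-16). H2-Ab1 and H2-Eb1, the beta chains of I-A and I-E, both differed by 4.63 ± 0.23, and Cd74, the invariant chain that guides class II molecules to the endosome, by 4.59 ± 0.21. Ciita, the transactivator on which class II transcription depends, read 11.84, 11.56 and 11.83 in CDP and 7.25, 7.28 and 7.32 in MPP, a difference of 4.46 ± 0.21. The mean level of the 15 genes was 11.5 to 11.8 on the CDP arrays and 9.35 to 9.54 on the MPP arrays, so the groups did not overlap. These gaps stood before treatment as well: H2-Aa differed by 5.69 at 0 h and its gap did not change by the test (0.04 ± 0.32, adjusted p = 0.967), while the gap of Ciita grew from 3.27 by 1.19 ± 0.19 (adjusted p = 6.50e-05). Without replicate 1 of CDP at 24 h the growth for Ciita was 0.94, under the fold threshold.

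The start regions of 2 of these genes are shown because class II promoters are known to carry an inverted CCAAT element, the Y box, close to the start. Each run is the 250 bases upstream of the start of the RefSeq gene on GRCm38.p6, written 5′ to 3′ on the gene's strand, with matches to CCAAT or its reverse complement in capitals. H2-Aa is at chr17:34287824-34288073 on the minus strand and H2-Eb1 at chr17:34305617-34305866 on the plus strand.
H2-Aa: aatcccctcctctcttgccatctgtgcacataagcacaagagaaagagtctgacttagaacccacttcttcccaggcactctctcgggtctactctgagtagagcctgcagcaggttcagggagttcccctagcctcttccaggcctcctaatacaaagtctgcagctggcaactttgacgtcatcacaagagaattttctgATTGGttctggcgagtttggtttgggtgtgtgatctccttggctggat
H2-Eb1: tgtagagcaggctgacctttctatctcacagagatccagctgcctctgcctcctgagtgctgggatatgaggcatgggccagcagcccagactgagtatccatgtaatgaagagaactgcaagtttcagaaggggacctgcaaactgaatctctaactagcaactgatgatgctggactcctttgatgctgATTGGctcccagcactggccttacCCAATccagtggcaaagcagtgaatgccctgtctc
H2-Aa holds 1 match, in the inverted orientation at position -48 from the start. H2-Eb1 holds 2, an inverted match at -59 and one on the written strand at -35. These letters occur in 33.85% of all 32851 promoters of the table on either strand, and a match is a description of the sequence and not evidence of binding.

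Some genes of differentiated DC were higher in CDP as well. Of 18 conventional DC genes 8 were higher and none lower (median 0.58), with 6 higher and 1 lower without replicate 3 of CDP. Among 20 plasmacytoid DC genes 7 were higher and 1, Tlr7, was lower (median 0.28, with 0.38 in untreated cells). Of all genes 2.07% were higher and 2.98% lower. Itgax, the CD11c integrin chain, read 12.76, 12.77 and 12.82 in CDP against 10.38, 9.81 and 9.71 in MPP, and Kmo, an enzyme of tryptophan breakdown, 13.04, 13.21 and 13.15 against 10.18, 10.19 and 9.59. Every CDP array was above every MPP array for both, with differences of 2.82 ± 0.17 and 3.15 ± 0.21. Siglech, a plasmacytoid DC lectin, differed by 3.31 ± 0.23, of which 1.69 ± 0.20 was gained after 0 h (adjusted p of the gain 6.21e-07), since it read 12.00, 12.12 and 11.81 in CDP and 9.06, 8.58 and 8.35 in MPP at 24 h. Cox6a2, a cytochrome oxidase subunit abundant in plasmacytoid DC, differed by 2.34 ± 0.21, close to its 2.67 at 0 h. Blnk, an adaptor of B cell receptor signalling, read 9.65 and 9.89 on replicates 1 and 3 of CDP but 7.59 on replicate 2, near the 7.28 to 7.53 of MPP, and its difference of 1.67 was 2.40 without replicate 2, whereas it lost the call without replicate 1 (1.37, adjusted p = 0.0156) or replicate 3 of CDP (1.25, adjusted p = 0.0172).

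Among 21 transcription factors of the DC lineage, 7 were higher in CDP and 2, Nfil3 and Zeb2, were lower (median 0.39). The shares of all genes were 2.07% and 2.98%. Irf4, a factor of the type 2 conventional DC, read 10.71, 11.02 and 10.46 in CDP and 7.38, 7.31 and 7.12 in MPP, a difference of 3.46 ± 0.21. Its gap was 2.11 in untreated cells and 2.14 still at 12 h, and had grown by 1.36 ± 0.25 at 24 h (adjusted p = 0.000273). Without replicate number 1 or 2 in both cell types the growth kept its size (1.38 and 1.19) but not its call, at adjusted p of 0.0256 and 0.0141. Bcl11a, required for plasmacytoid DC, differed by 1.68 ± 0.12, much as at 0 h (1.75). Id2, an inhibitor of E proteins, read 14.03, 13.88 and 14.10 against 12.37, 12.47 and 12.27 and differed by 1.64 ± 0.10 after 0.62 in untreated cells. Zeb2, a repressor that acts in plasmacytoid DC and monocyte development, was the reverse: CDP read 9.65, 9.07 and 10.02 and MPP 11.14, 11.38 and 11.26, a difference of -1.68 ± 0.23 where none was called at 0 h (-0.17).

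A group of epithelial adhesion genes that Langerhans cells share with keratinocytes also separated the treated cells. Of 12 Langerhans cell genes 5 were higher in CDP and none lower (median 0.34), and of 22 epithelial junction genes 6 were higher and none lower (median 0.38). The lists overlap, with Cdh1 in both, so their counts are not separate, and 2.07% of all genes were called higher. Cdh1, E-cadherin, through which Langerhans cells hold on to keratinocytes, read 12.53, 12.94 and 12.73 in CDP and 8.69, 8.46 and 8.14 in MPP. The groups lay far apart, by 4.30 ± 0.29 or 19.8-fold (adjusted p = 1.43e-12), and 2.96 ± 0.29 of this gap was added after 0 h. Cldn1, a claudin of tight junctions, read 12.99, 12.60 and 13.18 in CDP and 9.03, 8.39 and 8.77 in MPP, a difference of 4.19 ± 0.24 or 18.3-fold (adjusted p = 2.99e-14). It differed by only 0.15 in untreated cells, and its level was 6.02 above the 0 h mean in CDP and 1.98 above it in MPP. The gap of Cldn1 was 1.23 at 2 h, 2.02 at 4 h, 2.93 at 8 h and 4.43 at 12 h. Epcam, an adhesion molecule of epithelia and Langerhans cells, read 8.67, 8.95 and 9.02 against 6.62, 6.36 and 6.40 and was the slower one, with a gap of 0.84 at 12 h and 2.43 ± 0.10 at 24 h. F11r, the junctional adhesion molecule A, differed by 1.42 ± 0.16. Itgae, the alpha chain of CD103, was 4.88 above its 0 h mean in CDP and 3.47 above it in MPP, and treated CDP exceeded treated MPP by 1.65 ± 0.16. Ccr6, the receptor that guides Langerhans cells and their precursors to epithelium, read 10.35, 10.35 and 9.92 against 6.74, 6.64 and 6.50, a difference of 3.58 ± 0.27 that was 1.37 before treatment.

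**Figure D2:**
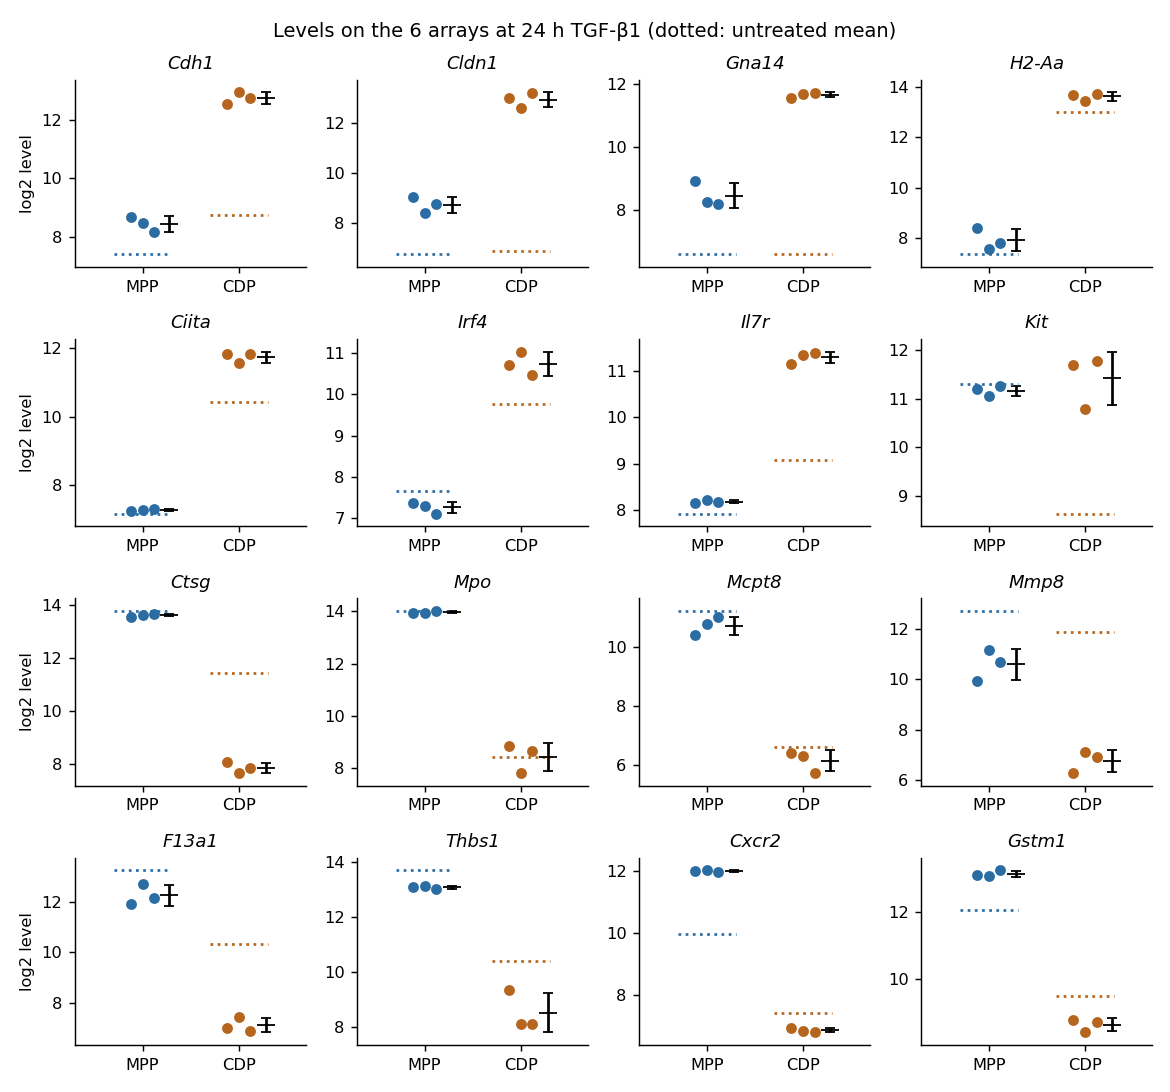
RMA log2 level (y axis, own range in each panel) of 16 genes on the 3 MPP (blue) and 3 CDP (brown) arrays at 24 h TGF-β1, with the mean and SD beside the points and the untreated mean as a dotted line. The groups do not overlap for any gene but Kit, whose CDP level lies well above the untreated CDP mean of 8.63 and at the level of MPP.

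The list of costimulatory and related molecules had 5 of 15 members higher in CDP, Cd40, Cd80, Cd86, Icosl and Btla, and 1 lower, Cd28 (median 0.25). Of all genes 2.07% were higher and 2.98% lower. Cd40, the receptor through which helper T cells license DC, read 12.56, 11.61 and 12.42 in CDP and 8.53, 8.23 and 8.30 in MPP. Replicate 2 was the lowest CDP array but lay above all of MPP, and the difference was 3.84 ± 0.43 with it and 4.14 without it. Cd80 differed by 3.27 ± 0.32 and Cd86 by 2.78 ± 0.29. The gaps of both were 1.49 and 1.38 in untreated cells and had grown by 1.77 ± 0.33 and 1.40 ± 0.23. The growth for Cd86 missed the test without replicate number 1 (1.23, adjusted p = 0.0142), and that for Cd40, 2.29 ± 0.56, without any of several arrays, for example 1.95 and an adjusted p of 0.0246 without replicate 1 of CDP at 24 h. Cd28, the T cell costimulatory receptor, read 6.42, 6.50 and 6.48 in CDP and 8.00, 8.49 and 7.75 in MPP and so differed by -1.61 ± 0.29, although untreated CDP stood 0.85 above untreated MPP.

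Of 25 hematopoietic cytokine receptors 8 were higher in CDP and 1, Csf3r, was lower (median 0.23, or 0.35 without replicate 2 of CDP). The shares of all genes were 2.07% higher and 2.98% lower. Il7r, the IL-7 receptor alpha chain, read 11.16, 11.35 and 11.38 in CDP against 8.16, 8.22 and 8.18 in MPP, a difference of 3.11 ± 0.25. Ifnlr1, the chain specific to the interferon lambda receptor, read 11.38, 10.96 and 11.07 against 8.24, 7.97 and 8.03, a difference of 3.05 ± 0.15 after 0.04 in untreated cells. Csf3r, the G-CSF receptor of the neutrophil lineage, went the other way with 8.77, 8.16 and 8.93 in CDP against 11.49, 11.55 and 11.75 in MPP, a difference of -2.98 ± 0.23 after -0.80 at 0 h. Kit, the stem cell factor receptor, read 11.70, 10.79 and 11.78 in CDP and 11.19, 11.05 and 11.25 in MPP, and these groups overlapped. The difference was 0.26, and 0.57 without replicate 2 of CDP (adjusted p = 0.0431), and it was called in neither case. In untreated cells the difference had been -2.67, and the gap stood at -2.56, -2.40, -2.31 and -1.72 at 2, 4, 8 and 12 h. The change of the gap by 24 h was 2.93 ± 0.28 (adjusted p = 2.84e-08). Kit was 2.79 above its 0 h mean in CDP and -0.14 from it in MPP.

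Of the 44 gene lists, that of neutrophil granules had the lowest median difference, in favour of MPP. Of 24 measured members 18 were lower in CDP and none higher, where 2.98% of all genes were lower and 2.07% higher. The list median was -2.93 against 0.04 over all genes. The mean level of the list was 10.4 to 11.1 on the MPP arrays and 7.77 to 7.98 on the CDP arrays. Mpo, myeloperoxidase, read 13.96, 13.95 and 14.02 in MPP and 8.83, 7.81 and 8.65 in CDP, and Elane, neutrophil elastase, 13.81, 13.90 and 13.94 against 8.57, 8.36 and 8.48. The groups lay far apart in both, by -5.54 ± 0.23 (46.6-fold) and -5.41 ± 0.15 (42.6-fold), and neither gap moved over the course, with -5.58 and -5.36 in untreated cells. S100a8, a subunit of calprotectin, differed by -5.41 ± 0.39 and varied more among the MPP arrays, from 12.06 to 13.14. Ctsg, cathepsin G of the same azurophil granules, read 13.56, 13.63 and 13.66 in MPP and 8.06, 7.68 and 7.84 in CDP, a difference of -5.76 ± 0.16 (54.1-fold). The gap of Ctsg was -2.33 in untreated cells, -2.55 at 2 h, -2.71 at 4 h, -3.79 at 8 h and -4.47 at 12 h. Its change of -3.43 ± 0.11 by 24 h (adjusted p = 9.80e-17) came with changes from the 0 h mean of -3.59 in CDP and -0.16 in MPP. Hp, haptoglobin, and Mmp8, the neutrophil collagenase, were not called at 0 h (-1.03, with adjusted p above the limit, and -0.83) and differed by -3.86 ± 0.31 and -3.84 ± 0.27 at 24 h. Mmp8 was below its 0 h mean in both cell types, with changes of -5.14 in CDP and -2.13 in MPP.

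The 250 bases upstream of the start of these 3 azurophil granule genes are shown because they are textbook targets of the ETS factor PU.1. Capitals mark GAGGAAG, a core of the PU.1 type searched on both strands. Mpo is at chr11:87793534-87793783 and Elane at chr10:79886062-79886311, both on the plus strand, and Ctsg is at chr14:56102575-56102824 on the minus strand (RefSeq, GRCm38.p6, 5′ to 3′ on the gene's strand).
Mpo: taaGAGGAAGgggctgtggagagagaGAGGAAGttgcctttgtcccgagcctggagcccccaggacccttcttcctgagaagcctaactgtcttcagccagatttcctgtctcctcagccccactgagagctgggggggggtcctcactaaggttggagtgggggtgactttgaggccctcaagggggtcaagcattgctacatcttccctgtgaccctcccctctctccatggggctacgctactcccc
Elane: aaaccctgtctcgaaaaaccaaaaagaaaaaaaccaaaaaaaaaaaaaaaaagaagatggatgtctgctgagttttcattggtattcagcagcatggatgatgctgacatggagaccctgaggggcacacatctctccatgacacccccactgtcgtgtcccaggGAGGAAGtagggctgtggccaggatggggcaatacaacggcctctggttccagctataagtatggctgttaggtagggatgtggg
Ctsg: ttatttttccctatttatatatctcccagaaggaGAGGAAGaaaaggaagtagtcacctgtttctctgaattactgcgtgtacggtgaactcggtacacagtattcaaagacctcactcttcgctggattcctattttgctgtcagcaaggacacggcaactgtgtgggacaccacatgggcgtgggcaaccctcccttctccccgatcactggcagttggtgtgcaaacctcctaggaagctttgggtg
Counted from the start, Mpo holds 2 matches at -247 and -224, Elane 1 at -85 and Ctsg 1 at -216. GAGGAAG occurs in 10.6% of all 32851 promoters of the table. A match describes the sequence only, and its relation to the gaps was not tested.

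**Figure D3:**
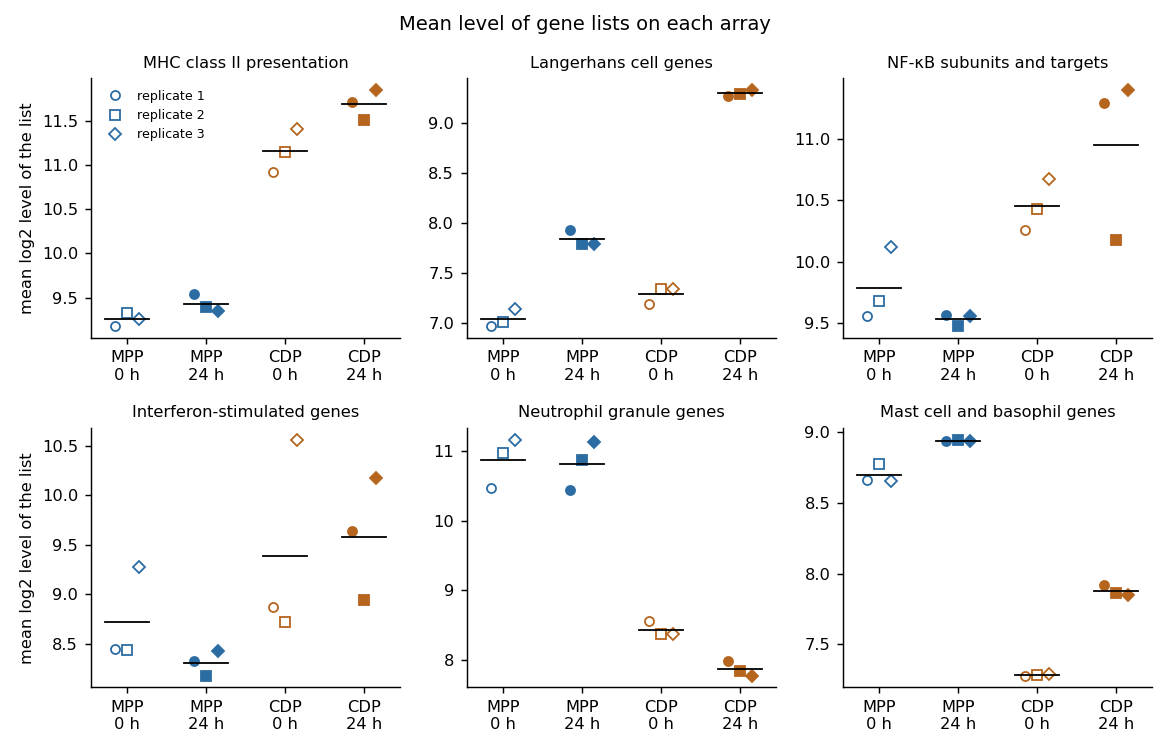
Mean RMA log2 level (y axis, own range in each panel) of 6 gene lists on every untreated (open) and 24 h TGF-β1 (filled) array of MPP (blue) and CDP (brown); symbols give the replicate number and lines the group mean. Class II, Langerhans, neutrophil and mast cell lists separate the 24 h groups on all arrays, whereas replicate 2 of CDP lies nearer to MPP in the NF-κB and interferon lists.

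Other myeloid lists went in the same direction. Of 28 monocyte and macrophage genes 7 were lower in CDP and 1, Itgam, was higher (median -0.38). Without replicate 1 or replicate 2 of CDP 4 of the 28 were lower, and without replicate 3 the median was -0.61. Of 19 mast cell and basophil genes 9 were lower and 1, Hpgds, was higher (median -0.42). Beside both lists, 2.98% of all genes were lower and 2.07% higher. F13a1, the coagulation factor XIII A chain of monocytes, read 7.01, 7.43 and 6.88 in CDP and 11.92, 12.72 and 12.13 in MPP, a difference of -5.15 ± 0.46. Fcgr3, an activating Fc gamma receptor, differed by -3.73 ± 0.20 after -1.02 at 0 h, and Lyz2, lysozyme, by -1.97 ± 0.28 after -0.23. Apoe, the lipid carrier of macrophages, differed by -2.31 ± 0.30. Among the mast cell and basophil genes, Mcpt8, a basophil protease, read 6.41, 6.32 and 5.73 against 10.38, 10.76 and 10.99 and kept its gap (-4.56 ± 0.23, with -4.60 at 0 h). Cpa3, the mast cell carboxypeptidase, differed by -4.28 ± 0.18, less than the -5.51 of untreated cells, and this narrowing of 1.23 ± 0.15 passed the test (adjusted p = 8.89e-07). Mcpt2, a mucosal mast cell protease, read 10.41, 9.79 and 9.19 in MPP against 5.82, 5.68 and 5.49 in CDP. Its gap of -4.14 ± 0.66 was -0.94 at 0 h, and the MPP level was 3.31 above the 0 h mean while that of CDP was 0.12 above it. Hpgds, which makes prostaglandin D2, was the exception with 12.34, 12.94 and 12.75 in CDP against 10.13, 10.16 and 9.95 in MPP, a difference of 2.60 ± 0.28.

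Chemotaxis and migration genes divided between the cell types. Of 23 chemokine and lipid receptors Ccr6, Ccr7 and Ccr1 were higher in CDP and Cxcr2, S1pr1, S1pr3 and Cmklr1 were lower (median 0.07). For this list and the integrins below, 2.07% of all genes were higher and 2.98% lower. Ccr7, which directs DC to lymph nodes, read 10.77, 10.09 and 11.27 in CDP and 7.93, 7.61 and 7.59 in MPP, a difference of 3.00 ± 0.25, with 3.22 already at 0 h. Cxcr2, the receptor through which neutrophils follow Cxcl chemokines, read 6.96, 6.84 and 6.83 in CDP and 12.00, 12.03 and 11.97 in MPP. The difference was -5.13 ± 0.31 or 34.9-fold, and it was -2.56 at 0 h. Here MPP moved more, with a level 2.01 above its 0 h mean against -0.55 in CDP. S1pr1, the sphingosine phosphate receptor of egress, differed by -1.48 ± 0.13 and was likewise 1.32 above its 0 h mean in MPP and 0.08 above it in CDP. Of 24 leukocyte integrins Itgax, Itgae, Itgb7 and Itgam were higher in CDP, and Itga1 at -1.76 ± 0.14 and Itgb3 at -1.60 ± 0.24 were lower (median 0.09).

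Stem cell and progenitor genes were lower in CDP where they differed. Of 25 measured members 9 were lower and none higher (median -0.36). Erg, an ETS factor of stem cells, read 8.67, 8.38 and 8.18 in CDP and 10.73, 10.54 and 10.71 in MPP, a difference of -2.25 ± 0.17. Adgrg1, an adhesion receptor of stem cells, differed by -2.20 ± 0.18 and Angpt1, angiopoietin 1, by -1.81 ± 0.14. Both stood at -2.95 and -2.58 in untreated cells. Myb differed by -2.08 ± 0.10, with -1.16 at 0 h. The lists of other blood lineages also held called genes, where 2.07% of all genes were higher and 2.98% lower in CDP. Of 14 erythroid genes Nfe2 at -2.63 ± 0.12, Car2 at -2.09 ± 0.34 and Tfrc at -1.17 ± 0.11 were lower, of 15 megakaryocyte genes Itgb3 and Thbs1, and of 8 eosinophil genes Prg2 alone, at -1.33 ± 0.26, a call that rests on replicate 3 of MPP (-0.93 without it). Of 21 B cell genes only Cd72, at 3.37 ± 0.20, and Blnk were higher in CDP. Of 26 T and NK cell genes 5 were higher, Cd7, Il7r, Klrd1, Cd5 and Cd96. The mean level of the T and NK list was 7.66 to 7.71 on the CDP arrays and 7.08 to 7.14 on the MPP arrays, and that of the B cell list 7.11 to 7.26 against 6.85 to 6.87.

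List medians were small for genes of the TGF-β pathway itself, against 0.04 over all genes, but single members were called. Over all genes 2.07% were called higher in CDP and 2.98% lower. Of 17 receptors and Smads 1 was higher and 2 were lower in CDP (median 0.01), of 14 feedback inhibitors 2 were higher and none lower (median 0.31), and of 16 ligands and latency genes 1 was higher and 1 lower (median 0.08). Tgfbr2, the ligand-binding receptor, read 12.07, 11.68 and 11.93 in CDP against 10.81, 10.54 and 10.53 in MPP, a difference of 1.27 ± 0.10. Eng, the coreceptor endoglin, differed by -1.12 ± 0.12. Smad3, a receptor-activated Smad, read 7.71, 7.75 and 7.87 in CDP and 9.42, 9.17 and 9.43 in MPP. The untreated groups had been level for Smad3 (-0.01), and the gap grew through -0.27, -0.61, -0.89 and -1.12 to -1.57 ± 0.14 (adjusted p of the change 5.70e-10), with a change from the 0 h mean of -1.96 in CDP and -0.40 in MPP. Smurf1, a ubiquitin ligase that targets Smads and the receptor, ran the other way, to 1.68 ± 0.13 from 0.31. Spsb1, an adaptor that directs the type II receptor to degradation, lay just inside the threshold at 1.0013 ± 0.12 and missed it without replicate 2 of CDP (0.93) or of MPP (0.97). Its level was 2.62 and 2.63 above the 0 h mean in CDP and MPP. Tgfb3, a ligand, read 9.09, 11.79 and 8.89 in CDP and 7.57, 7.56 and 7.45 in MPP, and its difference of 2.39 ± 0.40 was 1.46 without replicate 2 of CDP. Thbs1, thrombospondin 1, which activates latent TGF-β, read 9.34, 8.09 and 8.11 against 13.10, 13.11 and 13.02, a difference of -4.56 ± 0.23 that was -3.30 in untreated cells. Among 14 Id and Hes repressors Id2 and Id3 were higher and Id1 and Hes1 lower in CDP. Hes1, a Notch target, differed by -1.22 ± 0.11 with none at 0 h (0.01), its MPP level being 1.67 above the 0 h mean and that of CDP 0.44.

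The lists of inflammatory signalling were higher in CDP but rested unevenly on its arrays. Of 18 NF-κB subunits and targets 10 were higher and none lower (median 1.48), where 2.07% of all genes were higher. The mean level of this list was 11.3, 10.2 and 11.4 on replicates 1, 2 and 3 of CDP and 9.48 to 9.57 on the MPP arrays, so replicate 2 stood nearer to MPP than to the other CDP arrays. Without it 12 were higher (median 1.98), and without replicate number 1 of both cell types 6 were (median 1.35). Cd83, a maturation marker of DC, read 11.42, 8.62 and 11.28 in CDP against 7.61 to 7.76 in MPP, a difference of 2.76 ± 0.51, and 3.67 without replicate 2. Nfkbie, an inhibitor of NF-κB, read 11.23, 10.22 and 11.31 against 8.71, 8.33 and 8.60, a difference of 2.37 ± 0.35, and 2.72 without replicate 2. Relb, a subunit of the noncanonical pathway, differed by 2.01 ± 0.27 and by 2.38 without replicate 2. The growth of the gaps of Nfkbie (1.71 ± 0.45) and Relb (1.36 ± 0.33) after 0 h lost its call when any of several single arrays was left out, for example replicate 1 of CDP at 24 h, where it was 1.46 and 1.16. Of 20 genes in the list of AP-1 and Egr factors, which also holds Dusp1 and Ier3, 6 were higher (median 0.26). Among them were Dusp1 at 1.76, Ier3 at 1.41 ± 0.21 and Junb at 1.22 ± 0.17. Dusp1 lost its call without replicate 1 of CDP (1.62, adjusted p = 0.0161) or replicate 3 (1.18, adjusted p = 0.0392). Without replicate 3 of CDP 3 of the 20 were higher, against 8 without replicate 2.

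Of 36 chemokines and cytokines 5 were higher in CDP, Il1b, Ccl22, Ltb, Il12b and Cxcl16, and 3 were lower, Il15, Il6 and Il12a (median 0.20). Among all genes 2.07% were higher and 2.98% lower. Il1b read 11.46, 8.59 and 11.83 in CDP and 7.63, 7.14 and 7.15 in MPP, Ccl22 10.51, 7.40 and 10.70 against 6.77 to 6.94, and Il12b, the p40 chain of IL-12, 9.89, 6.76 and 9.99 against 6.37 to 6.48. In all 3 genes replicate 2 of CDP lay close to MPP. Their differences were 3.32 ± 0.78, 2.65 ± 0.69 and 2.44 ± 0.61, against 4.34, 3.72 and 3.50 without it, and none of the 3 passed the test without replicate 1 (adjusted p = 0.0110, 0.0283 and 0.0254) or without replicate 3 of CDP (adjusted p = 0.0123, 0.0275 and 0.0232). Accordingly 2 of the 36 were higher without either of these arrays, against 7 without replicate 2. Ltb, lymphotoxin beta, was even across the arrays, with 10.26, 9.67 and 10.25 against 7.55, 7.40 and 7.39 and a difference of 2.62 ± 0.13. Il6 read 6.68, 5.87 and 7.31 in CDP and 8.79, 8.43 and 8.89 in MPP, a difference of -2.08 ± 0.39 after -0.02 at 0 h. Il15 and Il12a, the p35 chain of IL-12, differed by -2.30 ± 0.26 and -1.69 ± 0.16.

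Of 27 interferon-stimulated genes 3 passed the test, Oas2, Stat2 and Parp14, all higher in CDP, as were 2.07% of all genes. Yet the list median was 1.23 and 21 of the 27 had all CDP arrays above all MPP arrays (26.9% of all genes did). The mean level of the list was 9.64, 8.94 and 10.2 in CDP and 8.33, 8.18 and 8.42 in MPP, and it already spread among untreated CDP, from 8.72 to 10.6. Stat2, a subunit of the interferon response complex, differed by 1.47 ± 0.26. Oas2, an antiviral synthetase, read 9.81, 9.70 and 10.84 against 7.83, 7.73 and 8.08, a difference of 2.24 ± 0.65 that passed neither without replicate 2 of CDP (2.45) nor without any other single array. With the replicate number as a block 6 of the 27 were higher, and without replicate number 3 of both cell types 7 were, whereas without replicate 3 of CDP alone 1 was. Usp18 at 2.55 and Irf7 at 2.33 were the largest of the members that did not pass, with adjusted p of 0.0274 and 0.0103.

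Innate receptors split by family member. Of 19 Toll-like receptors and adaptors Tlr9, Ly86 and Tlr3 were higher in CDP and Tlr8, Tlr7, Ly96 and Tlr4 lower (median -0.02, or 0.23 without replicate 2 of CDP). For this list and the lectins below, the shares of all genes were 2.07% higher and 2.98% lower. Tlr9, the DNA sensor, read 12.04, 11.44 and 12.06 in CDP against 10.29, 10.26 and 10.27 in MPP, a difference of 1.58 ± 0.13. The RNA sensors Tlr8 and Tlr7 were at -0.32 and -0.01 in untreated cells, neither called. At 24 h Tlr8 read 6.51, 6.71 and 7.02 in CDP and 9.87, 10.23 and 10.40 in MPP, a difference of -3.42 ± 0.33, and Tlr7 differed by -2.16 ± 0.39. Tlr7 missed the test without replicate number 1 (-2.28, adjusted p = 0.0112). Of 29 C-type lectin, Siglec and Cd300 receptors 7 were higher and 7 lower (median 0.05). Clec7a, Dectin-1, differed by -2.32 ± 0.32 and Cd300lb by -2.08 ± 0.21, after -0.22 and 0.00 at 0 h.

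**Figure D4:**
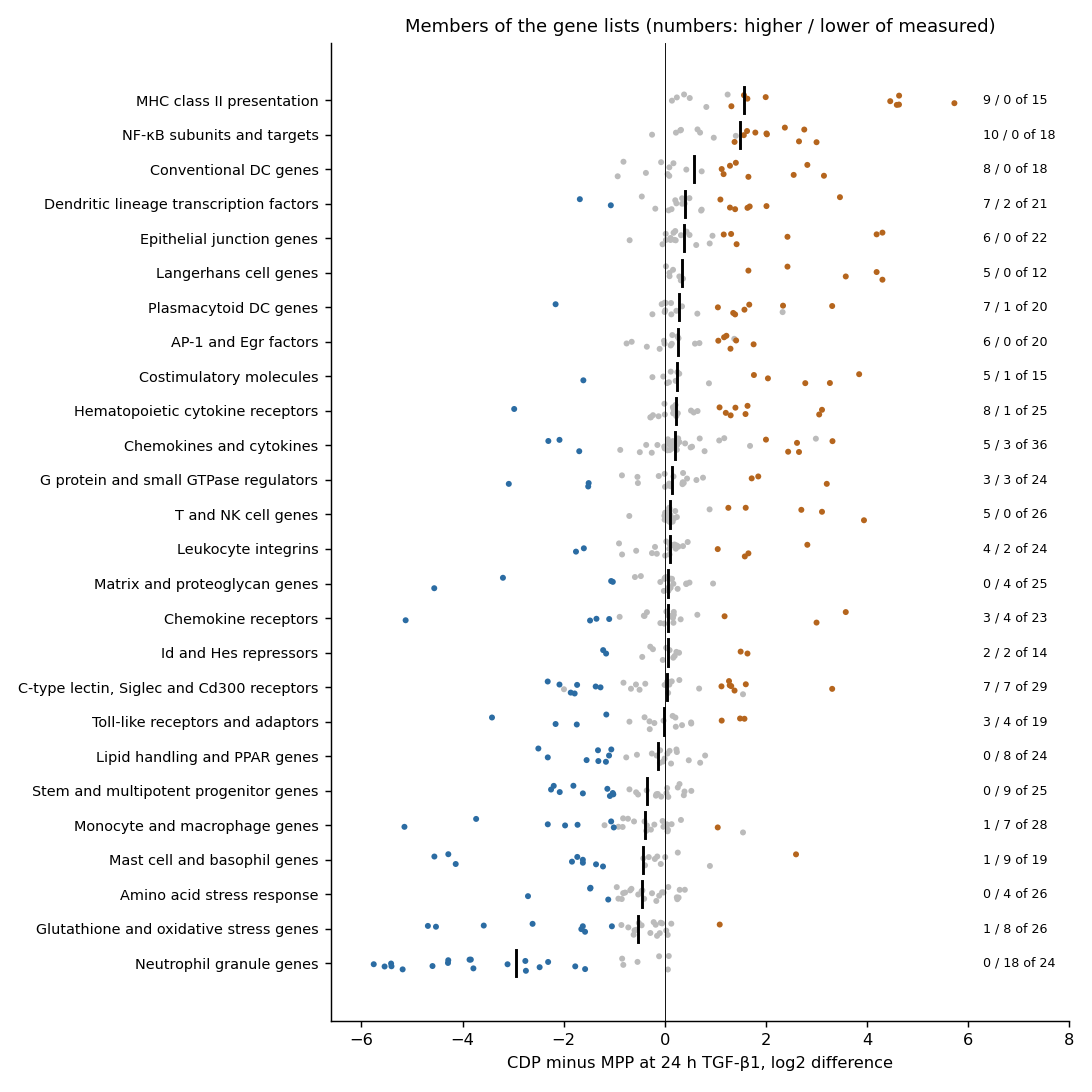
Each point is a measured gene of 1 of 26 lists with 4 or more called members; the x axis is the log2 difference of CDP and MPP at 24 h TGF-β1, brown points are called higher and blue points lower in CDP, grey points are not called, and the bar is the list median. Numbers at the right give genes higher and lower of those measured, from 9 and 0 of 15 for MHC class II to 0 and 18 of 24 for neutrophil granules.

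Metabolic genes were lower in CDP where they differed, with few exceptions. Beside the counts that follow, 2.98% of all genes were lower and 2.07% higher. Of 26 glutathione and oxidative stress genes 8 were lower and 1, Ggt5, was higher (median -0.54). Without replicate 2 of CDP Ggt5 was not called. Gstm1, a glutathione transferase, read 8.76, 8.39 and 8.71 in CDP and 13.11, 13.08 and 13.24 in MPP, a difference of -4.53 ± 0.13 or 23.0-fold that was -2.57 at 0 h. Mgst1, a microsomal transferase, differed by -4.69 ± 0.19, Gpx3, a secreted glutathione peroxidase, by -3.58 ± 0.19 and Mgst2 by -2.62 ± 0.19. Of 24 lipid handling genes 8 were lower and none higher (median -0.13), among them Dgat2, which completes triglyceride synthesis, at -2.50 ± 0.21 and Cpt1a, of mitochondrial fatty acid import, at -1.32 ± 0.12. Scd1, the stearoyl desaturase, was called at -1.55 ± 0.44 but stood at -0.88 without replicate 3 of CDP, the lowest array, and missed the test without replicate 1 or 2 of MPP as well. Of 26 amino acid stress genes 4 were lower (median -0.45), namely Vldlr at -2.71 ± 0.34, Cebpb at -1.48 ± 0.21, Phgdh, the first enzyme of serine synthesis, at -1.47 ± 0.09 and Asns, asparagine synthetase, at -1.12 ± 0.08. Phgdh and Asns had been near level at 0 h (-0.12 and -0.14).

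Growth genes showed a shift that was small per gene and even across the list. All 29 ribosome biogenesis genes had every CDP array below every MPP array, where 23.9% of all genes did, with a median of -0.57, although only Myc at -1.33 ± 0.08, Gnl3 at -1.18 ± 0.09 and Polr1b at -1.07 ± 0.12 passed the fold threshold. When quantile normalization was repeated, Polr1b missed that threshold at -0.98, and the median was -0.50 for this list and -0.33 for the S phase list. The ribosome biogenesis median had been -0.25 in untreated cells. All 27 S phase genes likewise had CDP below MPP on every array, with a median of -0.38 against -0.04 at 0 h and Gins1, of the replication helicase, the largest at -0.81 ± 0.09, and none was called. The 25 genes of G2 and mitosis were centred on -0.04 and none was called, with Ttk, a spindle checkpoint kinase, the largest at -0.49 ± 0.11. Of 14 cell cycle brakes and D cyclins Btg2 at 1.91 ± 0.17 and Ccnd1, cyclin D1, at 1.05 ± 0.10 were higher, the latter at 0.99 without replicate 1 of CDP. Beside these counts of called growth genes, 2.07% of all genes were higher and 2.98% lower. Of 21 glycolysis genes Hk3 at -2.71 ± 0.18 and Pfkl at -1.28 ± 0.29 were lower (median -0.44), where 2.98% of all genes were. Pfkl missed the test without replicate 3 of CDP (-0.99, adjusted p = 0.0101). Single arrays moved this list, with 5 genes lower and a median of -0.76 without replicate 2 of CDP and 1 gene lower and a median of -0.32 without replicate 3. No gene passed among 19 of cholesterol synthesis or 12 heat shock genes, and the largest of them were Dhcr7 at -0.70 ± 0.10 and Hspd1 at -0.88 ± 0.11.

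The remaining lists held called genes in both directions, where 5.06% of all genes were called in either direction. Of 25 lysosomal genes Lgmn at 2.08 ± 0.09 and Ctsh at 1.05 ± 0.10, both proteases of antigen processing, were higher and Gla was lower at -1.47 ± 0.14; Ctsh stood at 0.98 without replicate 3 of CDP. Of 20 Bcl2 family and apoptosis genes Bmf at 1.37 ± 0.17 was higher and Bid, at -1.55 ± 0.14 after 0.04 at 0 h, was lower. Of 13 genes of the aryl hydrocarbon receptor and the TAM receptors Ahr, the receptor itself, was higher, reading 11.33, 11.57 and 11.65 against 9.14, 9.14 and 9.17, a difference of 2.37 ± 0.20. Of 25 matrix genes Thbs1, Fn1 at -3.20 ± 0.28, Vcan at -1.06 ± 0.32 and Mmp2 at -1.03 ± 0.17 were lower. Without replicate 3 of MPP 2 of the 25 were lower. Vcan and Mmp2 lost the call with any of several arrays left out, at -0.81 without replicate 2 and -0.83 without replicate 1 of MPP. Vcan also missed the test without replicate 2 of CDP (-1.17, adjusted p = 0.0124). Of 24 G protein and small GTPase regulators 3 were higher and 3 lower. Gna14, a Gq family alpha subunit, read 11.56, 11.67 and 11.71 in CDP and 8.91, 8.24 and 8.19 in MPP, a difference of 3.20 ± 0.13 where untreated cells stood at -0.02, and its level was 5.07 above the 0 h mean in CDP and 1.85 above it in MPP. Rasgrp2, an activator of Rap1 in platelets and leukocytes, differed by -3.09 ± 0.19.

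Among the largest differences were also genes not described so far, most of them outside the lists. Higher in CDP were Ctnnd2, delta catenin, at 4.49 ± 0.21, Sema6d, a transmembrane semaphorin, at 4.33 ± 0.15, Cd7, of the T and NK list, at 3.94 ± 0.20, and Scimp, an adaptor at sites of antigen presentation, at 3.56 ± 0.19. Sema6d read 10.86, 10.92 and 11.01 against 6.77, 6.59 and 6.44. Lower were Nkg7, a granule membrane protein of cytotoxic cells, at -5.30 ± 0.26 and Abcd2, a peroxisomal transporter, at -4.88 ± 0.24, which read 6.58, 6.82 and 6.60 against 11.39, 11.67 and 11.59. The single largest difference, -6.05 ± 0.29 or 66.5-fold, belonged to the probe set of Ly6a2, with 7.83, 7.05 and 6.74 in CDP and 13.02, 13.39 and 13.36 in MPP. Ly6a2 has close relatives in the Ly6 family, Ly6a (Sca-1) among them, so this value cannot be assigned to 1 gene with certainty.

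Every called gene was then sorted by what had become of its gap since 0 h, where the change of the gap is the 24 h difference minus the 0 h difference, tested by limma with the replicate number within each cell type as a block. The change was called in 369 genes (1.85%), 144 toward CDP (0.722%) and 225 toward MPP (1.13%). A gap was kept where it was called at both times and its change was not, in 136 genes higher and 225 lower in CDP, together 35.8% of the calls at 24 h. It had widened in 18 and 32 genes and narrowed in 4 and 2, and in none was it called in opposite directions at both ends. It had opened, meaning that it was called at 24 h and not at 0 h and that the change was called, in 93 genes higher and 118 lower in CDP, 20.9% of the calls. In a further 380 genes called at 24 h but not at 0 h the change itself did not pass, so these cannot be counted as new. Of the gaps of untreated cells, 47 had closed, 34 of genes that were higher in untreated CDP and 13 of genes that were lower. These classes rest on measured thresholds and describe the genes without a further test.

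In the opened and widened classes it was mostly CDP that had moved. Of the 93 genes that opened toward CDP, 89 had the larger change from 0 h in CDP, where the median change was 1.55 against 0.01 in MPP. Of the 118 that opened toward MPP, 99 had the larger change in CDP, with medians of -1.40 and -0.13. The same held for 16 of 18 and 28 of 32 genes with widened gaps and for 30 of 34 and 10 of 13 with closed gaps, whereas among kept gaps it was 78 of 136 and 126 of 225. The median gap of the genes that opened toward CDP was 0.21 at 0 h, 0.43 at 2 h, 0.71 at 4 h, 0.80 at 8 h, 1.06 at 12 h and 1.81 at 24 h, and 48 of the 93 were called at 12 h (1.54% of all genes were). Toward MPP it ran from -0.25 through -0.51, -0.54, -0.84 and -1.09 to -1.66, with 66 of 118 called at 12 h (2.19% of all genes were). The end points of these courses were used to define the classes. The arrays between them entered the same fits, so the values at 2 to 12 h are not independent of the classes either.

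**Figure D5:**
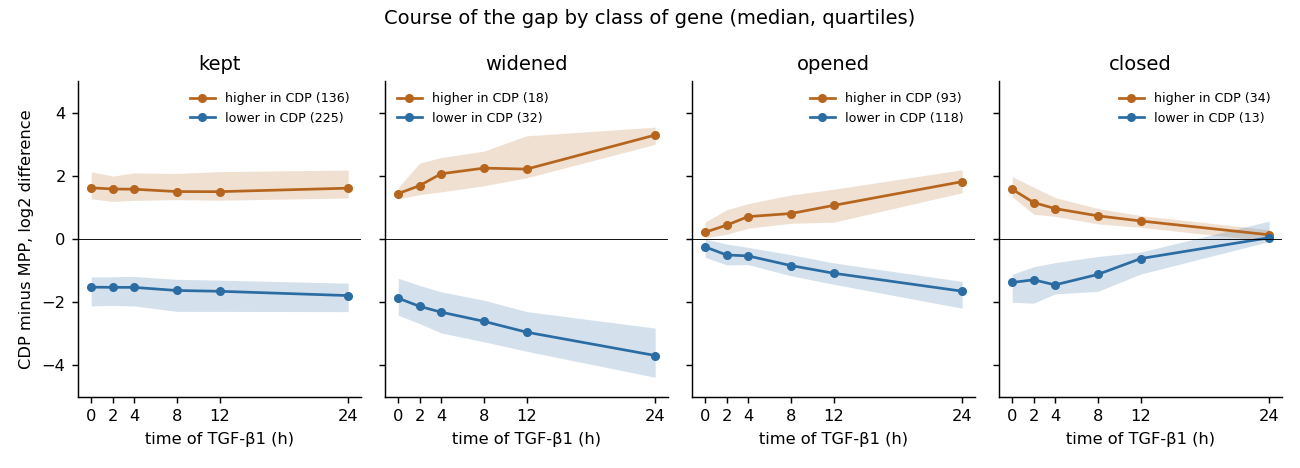
Median log2 difference of CDP and MPP (y axis) at 0, 2, 4, 8, 12 and 24 h TGF-β1 (x axis) for genes whose gap was kept, widened, opened or closed, with bands from the lower to the upper quartile of genes; brown marks genes higher and blue genes lower in CDP. Kept gaps stay between 1.5 and 1.62 and between -1.53 and -1.79, while opened gaps grow at every step to 1.81 and -1.66.

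After Cldn1, the opened gaps with the largest 24 h excess in CDP were those of Rasgef1b, Fam189a2, P2rx5 and Susd2. Fam189a2 read 9.88, 10.87 and 10.14 in CDP and 7.05, 7.07 and 6.95 in MPP (3.28 ± 0.15), and P2rx5, an ATP-gated channel, 10.05, 11.08 and 10.64 against 7.33, 7.41 and 7.35 (3.23 ± 0.25). Rasgef1b, an exchange factor for Rap2, differed by 3.40 ± 0.50 and Susd2 by 3.21 ± 0.41, and the changes of both gaps lost their call without replicate number 1 of both cell types. Beside Mcpt2, Hp, Mmp8 and Tlr8, Ak4, a mitochondrial adenylate kinase, opened toward MPP at -3.43 ± 0.58 and varied widely in CDP, from 7.16 to 9.54. The changes of the gap of Ak4 and Mcpt2 did not pass in a fit with no replicate block. Narrowed gaps were those of Klrd1 (CD94), Dpp4 (CD26), St6gal1 and Cd300e, which remained higher in CDP, and of Cpa3 and Il1f9, which remained lower. Klrd1 read 9.24, 8.62 and 10.05 in CDP and 6.76, 6.58 and 6.48 in MPP, 2.70 ± 0.23 after 4.81 at 0 h, and Dpp4 stood at 2.55 ± 0.24 after 4.20.

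The gaps that closed included those of Cd22, an inhibitory Siglec of B cells, and Lox, lysyl oxidase. Cd22 differed by 3.75 in untreated cells and by 2.98, 2.74, 2.52 and 1.76 at 2, 4, 8 and 12 h. At 24 h it read 7.12, 7.16 and 7.15 in CDP and 6.94 to 7.07 in MPP, a difference of 0.14 ± 0.17 (adjusted p = 0.532), and its level in CDP had changed by -3.54. Lox went from 3.09 to 0.42 ± 0.19 and had reached 0.42 by 12 h, with changes from 0 h of -3.94 in CDP and -1.27 in MPP. Pltp, a phospholipid transfer protein, Cyp4f37 and Bank1, a B cell scaffold, moved in the same direction, from 3.23, 2.92 and 2.38 to 0.80, 0.85 and 0.01. Of the genes that were lower in untreated CDP, those with the largest untreated gaps among the closed were Kit, Alox5, Prrg4, Serpinb10 and Igfbp7. Alox5, 5-lipoxygenase, read 9.86, 11.09 and 10.04 in CDP and 9.11, 9.46 and 9.74 in MPP, so that a gap of -2.01 at 0 h had become 0.89 ± 0.27 (adjusted p = 0.0106), or 0.51 (adjusted p = 0.140) without replicate 2 of CDP, the highest array, and its level was 3.20 above the 0 h mean in CDP and 0.30 above it in MPP. Serpinb10 and Igfbp7 closed through MPP, with changes from 0 h of -2.53 and -1.18 there against -0.85 and -0.04 in CDP. Their 24 h differences of -0.89 and -0.97 lay just short of the fold threshold, and the change for Igfbp7 lost its call without replicate 2 of CDP at 24 h.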

How the data were processed

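Affymetrix Mouse Gene 1.0 ST arrays of MPP and CDP at 0, 2, 4, 8, 12 and 24 h TGF-β1 (3 biological replicates each) were deposited by the authors as log2 values from Affymetrix Power Tools and RMA, with no version given; a separate treatment text names 6 h where the titles give 8 h. The study's own calls used FARMS summaries, which were not used here. Of 35556 probe sets, 21789 had 1 gene symbol, 1621 several and 12146 none. RMA includes quantile normalization, so a shift of all genes together would not be seen, although the deposited array medians still ran from 7.49 to 7.66. Low levels lie near background, which compresses differences. The number of arrays limits the precision.

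Differences were tested two-sided with limma 3.58.1 (lmFit, eBayes, R 4.3.3) on all 36 arrays, and errors are limma standard errors. The block in the test of the gap change is the replicate number within a cell type, as in the study's methods. The code was tested on simulated data. Members and the 44 gene lists (915 of 988 entries measured) were chosen with earlier results of these data known. Named genes were the 12 largest called differences in each direction, the 5 largest of each gap class and direction, the 4 largest called members of each list (or the single largest) and 6 label checks. Other genes, among them members of counts of 5 or fewer, Usp18 and Irf7, were named after their values were seen. A comparison of promoter motifs between called sets was void, since 77.0% and 77.31% of the called genes had a promoter, under the 80% set. Columns with accession names were matched to the sample labels.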

Additional observations from a re-analysis of the deposited data

Results flagged for a closer look

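For 79 of the named genes the difference between CDP and MPP at 24 h was not the same as that at 0 h, by limma's test of the interaction with the replicate number as a block (adjusted p under 0.01 and a change of at least 1). Over all genes such a change was called in 1.85%. Genes of the widened, narrowed, opened and closed classes were named because their change was called, so the number 79 is no result about the named genes. The values that follow are changes of the log2 difference, positive where the gap moved toward CDP.

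The gap moved toward CDP by at least 2 log2 units for Cldn1 4.04, Gna14 3.23, Fam189a2 3.16, Ifnlr1 3.01, Cdh1 2.96, Kit 2.93, Alox5 2.90, P2rx5 2.70, Rasgef1b 2.64, Susd2 2.43, Epcam 2.40, Cd40 2.29, Il12b 2.23 and Ccr6 2.21. Smaller changes, of 1.5 or more, were those of Il7r 1.96, Cd80 1.77, Ltb 1.76, Hpgds 1.74, Nfkbie 1.71, Siglech 1.69, Serpinb10 1.68 and Prrg4 1.58. Changes under 1.5 were those of Itgae 1.41, Cd86 1.40, Smurf1 1.37, Relb 1.36, Irf4 1.36, Maff 1.31, Il1f9 1.29, Rasgrp4 1.26, Cpa3 1.23, Ciita 1.19, Igfbp7 1.13, Ahr 1.13, Id3 1.08, Id2 1.01, Junb 1.01 and Scimp 1.00.

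The gap moved toward MPP by at least 2 log2 units for Cd22 -3.62, Ctsg -3.43, Mcpt2 -3.19, Tlr8 -3.10, Mmp8 -3.01, Hp -2.83, Fcgr3 -2.71, Lox -2.67, Cxcr2 -2.57, Pltp -2.43, Ak4 -2.38, Bank1 -2.36, Fn1 -2.33, F13a1 -2.23, Abcd2 -2.22, Csf3r -2.18, Tlr7 -2.15, Klrd1 -2.10, Clec7a -2.10, Cd300lb -2.09 and Cyp4f37 -2.07. Smaller changes, of 1.5 or more, were those of Gstm1 -1.95, Lyz2 -1.74, Itgb3 -1.73, Vldlr -1.72, Dpp4 -1.65, Bid -1.59, Smad3 -1.56 and Zeb2 -1.51. Changes under 1.5 were those of St6gal1 -1.45, Ly96 -1.45, Phgdh -1.34, Apoe -1.31, Rasgrp2 -1.31, Thbs1 -1.26, S1pr1 -1.24, Itga1 -1.24, Hes1 -1.23, Mgst1 -1.10, Scd1 -1.06 and Cd300e -1.05.

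Of these 79 changes, 31 lost the call under at least 1 of 24 alternatives. That of Il12b did so under 17, with an adjusted p of 0.125 without the replicate block and of 0.022 with trend and robust estimation, and when almost any single array was left out. The changes of Nfkbie, Relb, Scimp, Cd40, Junb, Maff, Scd1 and Id2 lost it under 8 to 14 alternatives. Those of Ahr, Ak4, Apoe, Cd300e, Cd86, Ciita, F13a1, Id3, Igfbp7, Il1f9, Irf4, Ly96, Lyz2, Mcpt2, Mgst1, Rasgef1b, Rasgrp4, Serpinb10, Susd2, Thbs1, Tlr7 and Vldlr lost it under 1 to 6.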

How the results depend on the processing

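No direction reversed among the comparisons and the 156 named genes. Over 9 leave-one-out settings 373 to 448 genes were higher and 552 to 616 lower in CDP at 24 h, and 395 to 457 and 522 to 607 under the other alternatives that keep the call rule (median centring, repeated quantile normalization, other probe sets, a filter on dim genes, array weights, trend and robust estimation, and fits of the contrast's arrays alone). At 0 h the ranges were 230 to 278 and 272 to 326 with an array or number left out. For the change of the gap they were 111 to 173 and 208 to 247, and 110 to 164 and 182 to 234 under the other alternatives. Without the replicate block within cell types the change of the gap was called in 300 genes in place of 369. Whether replicate numbers also pair CDP with MPP was not settled. At 24 h same-numbered arrays deviated together, with residual correlations of 0.305, 0.148 and 0.220. Without Xist, Tsix and Y-linked genes these were 0.0756, 0.103 and 0.178. At 0 h the correlations were 0.513, 0.283 and 0.417, and 0.355, 0.226 and 0.390 without those genes. With all genes they were 0.247, -0.011 and 0.0066 at 2 h and 0.265, 0.044 and 0.098 at 4 h. Later they were 0.173, 0.136 and 0.0015 at 8 h and 0.399, -0.040 and -0.081 at 12 h. The paired fit, a block on replicate number across cell types, called 423 higher and 603 lower at 24 h, 18 more calls and none lost. Testing against a minimum difference of 1 (treat) is a stricter rule and left 140 higher and 253 lower, together 393 genes, with 41 and 52 list members in place of 102 and 106.

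Leaving out 1 replicate number gave 9 to 13 widened gaps higher in CDP (18 with all arrays), 1 to 2 narrowed gaps lower in CDP (2) and 8 to 13 closed gaps lower in CDP (13), with fewer arrays in each fit. Of 141 named genes called at 24 h, 120 kept the call under all 18 alternatives other than treat, which 56 did not pass, and of 79 named gap changes 48 did under all 24. Leaving out a single 24 h array moved a count of called members by more than 1.5 times in 17 of 44 lists, in 11 of them by 1 gene. The medians of the gene lists moved by more than the replicate spread in 71 of 836 list and setting pairs. Probe sets of near-identical genes (Ly6a2, Gstm1, Mcpt2, Mcpt8 and the H2 genes) may share signal with relatives.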
